A study of Mus musculus with 3 samples.

Results

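Saa3 monocytes are described here: cells of the mouse cochlear suspension that carried the marks of classical monocytes together with RNA of Saa3, the serum amyloid A gene that mouse macrophages and other cells outside the liver switch on in inflammation. They were chosen from the counts of unique molecular identifiers (UMIs), each of which stands for 1 captured RNA molecule. A barcode had to hold at least 500 UMIs and 200 genes with at most 20% mitochondrial UMIs, at least 3 UMIs of Ly6c2, 1 of Ccr2, 1 of Csf1r and 3 of Saa3, at most 2 UMIs of the C1q genes and under 10 of Elane and Mpo, and no joint detection of Ass1 and Nrg1. This gave 181 of the 37188 barcodes that passed the filters on depth, genes and mitochondrial RNA. The values of the genes in this gate chose the cells and are no findings about them.

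The study dissociated cochleae of C57BL/6J mice, pooling 6 mice into 1 library for each of 3 groups. The NIHL group (noise-induced hearing loss) heard 115 dB for 4 h over 3 days, the HHL group (hidden hearing loss) 110 dB for 2 h, both with cochleae collected 6 h later, and the control group no noise. The cells stand in 1 table, in which a barcode suffix (1, 2 or 3) separates the libraries, and no label ties a suffix to a group. They are therefore called library 1, 2 and 3, and no noise group was set against another. A group had no replicate library, no test was run, and the mice within a library cannot be told apart. Every interval is a 95% interval that covers counting error alone, not the clumping of UMIs within cells nor differences between mice or libraries.

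Classical (Ly6C-high) monocytes leave the bone marrow through CCR2 and enter inflamed tissue, where they become macrophages or dendritic cells. Microbial products and products of damaged cells act on them through Toll-like receptors and NF-kB, which switches on cytokines such as TNF, IL-6 and IL-1, while interferons act through STAT proteins and switch on CXCL10, MS4A4C and the guanylate-binding proteins. Serum amyloid A proteins are acute-phase proteins that bind lipids and attract leukocytes. In mice the Saa3 promoter is known to respond to NF-kB, C/EBP factors and interferon-regulated factors in macrophages.

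The promoters of Saa3, of Cxcl10 and Tnf, the markers that were higher in these cells in all 3 libraries, and of Clec4e, one of the genes most steadily higher in them, are shown because the genes are found high in the same cells. Each is the stretch of 250 bases before the start of the RefSeq gene in GRCm38.p6, 5′ to 3′ on the strand of the gene, with matches to 5 motifs in capitals.
Saa3, chr7:46715677-46715926, minus strand: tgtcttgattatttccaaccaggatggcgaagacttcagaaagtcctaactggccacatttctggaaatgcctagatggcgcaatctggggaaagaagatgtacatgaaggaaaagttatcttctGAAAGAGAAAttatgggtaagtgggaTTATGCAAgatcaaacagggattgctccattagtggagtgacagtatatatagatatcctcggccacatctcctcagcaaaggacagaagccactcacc
Cxcl10, chr5:92348890-92349139, minus strand: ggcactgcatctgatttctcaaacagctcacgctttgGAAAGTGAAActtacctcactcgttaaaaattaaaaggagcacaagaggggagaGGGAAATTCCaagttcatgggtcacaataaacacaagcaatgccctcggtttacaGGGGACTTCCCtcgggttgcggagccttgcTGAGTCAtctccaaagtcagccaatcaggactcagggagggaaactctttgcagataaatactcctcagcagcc
Tnf, chr17:35202008-35202257, minus strand: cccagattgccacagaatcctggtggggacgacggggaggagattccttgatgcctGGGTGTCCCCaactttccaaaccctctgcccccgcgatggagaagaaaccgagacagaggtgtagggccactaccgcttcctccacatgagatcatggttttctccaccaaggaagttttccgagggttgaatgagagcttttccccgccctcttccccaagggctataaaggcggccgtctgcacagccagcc
Clec4e, chr6:123289872-123290121, minus strand: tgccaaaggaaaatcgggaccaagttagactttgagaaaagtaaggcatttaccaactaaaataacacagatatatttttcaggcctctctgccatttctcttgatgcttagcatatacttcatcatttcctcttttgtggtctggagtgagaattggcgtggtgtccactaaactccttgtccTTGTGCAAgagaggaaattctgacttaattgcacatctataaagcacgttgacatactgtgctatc
The motifs, searched on both strands, were GGG and CC with any 5 bases between them (NF-kB), GAAA and GAAA with any 2 bases between them (the interferon-stimulated response element), TTGCNNAA (C/EBP), TGANTCA (AP-1) and TTCNNNGAA (STAT). The Saa3 stretch held the interferon element 125 bases and a C/EBP match 99 bases before the start. The Cxcl10 stretch held an interferon element at 213 bases, NF-kB matches at 159, 104 and 103 bases, of which the nearest 2 overlap, and an AP-1 match at 74 bases. The Tnf stretch held an NF-kB match at 194 bases and the Clec4e stretch a C/EBP match at 66 bases. Of all 32851 promoters in the table, 45.8% held the NF-kB letters, 2.98% the interferon element, 9.56% the C/EBP, 6.75% the AP-1 and 7.02% the STAT letters. Of the 5 marker genes (Saa3, Cxcl10, Tnf, Ms4a4c and Il6), 4 held the NF-kB letters and 2 each the interferon, C/EBP and AP-1 letters. A match is a run of letters, not a shown binding site.

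Saa3 monocytes numbered 51 in library 1, 29 in library 2 and 101 in library 3. They made up 0.302% (0.225 to 0.397), 0.302% (0.202 to 0.433) and 0.944% (0.769 to 1.15) of the filtered barcodes of libraries 1, 2 and 3. Among the cells of the same gate with any number of Saa3 UMIs, called gated monocytes below, the shares were 3.15% (2.35 to 4.12) of 1621, 3.80% (2.56 to 5.41) of 764 and 15.4% (12.7 to 18.4) of 657 cells. The interval of library 3 does not meet those of libraries 1 and 2. Cells were also deeper in library 3: its Saa3 monocytes had a median of 16462 UMIs, against 8712 in library 1 and 7648 in library 2. With every cell first thinned to 3000 UMIs, 41 cells in library 3, 12 in library 1 and 4 in library 2 met the rule. These were 10.4% (7.57 to 13.9), 1.20% (0.622 to 2.09) and 0.998% (0.272 to 2.53) of the cells then in the monocyte gate, again highest in library 3. Thinning can bring in cells that the upper limits of the gate leave out at full depth. Cells with at least 3 Saa3 UMIs that failed only the rule on Ass1 and Nrg1 numbered 10, 1 and 83 in libraries 1, 2 and 3. Those that failed only the rule on Elane and Mpo numbered 6, 1 and 41. The part of such cells in the thinned shares was not tested.

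**Figure D1:**
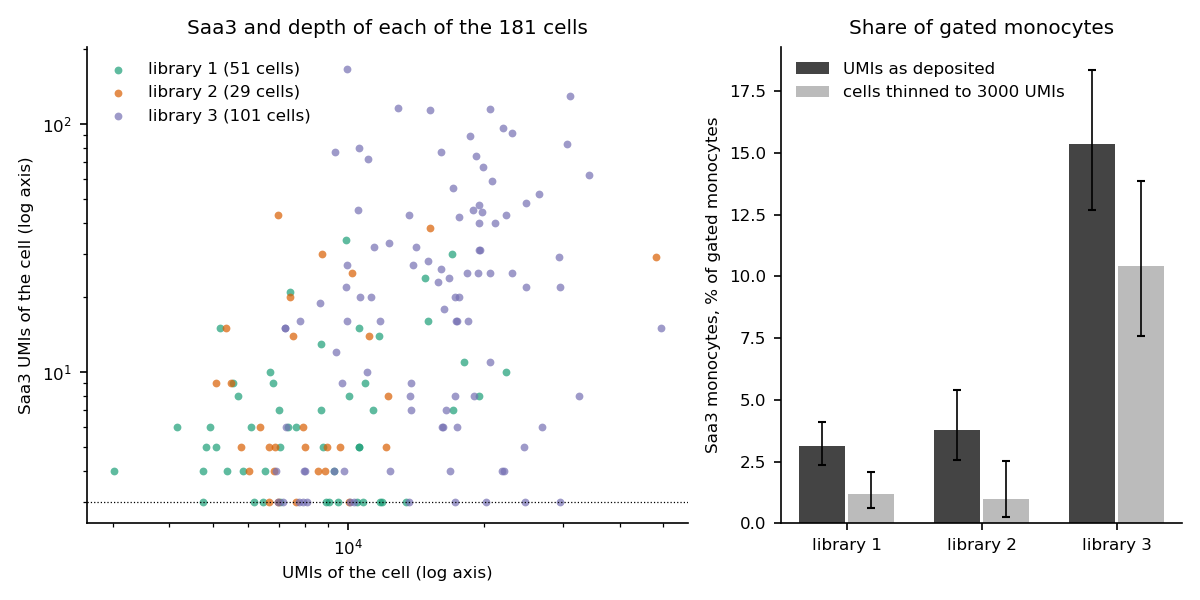
Left, Saa3 UMIs against all UMIs of each Saa3 monocyte, both on log axes, coloured by library, with the dotted line at the minimum of 3 Saa3 UMIs. Right, Saa3 monocytes as a percent of gated monocytes with exact 95% intervals; library 3 reached 15.4% as deposited and 10.4% with cells thinned to 3000 UMIs.

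The amount of Saa3 per cell spread widely. A Saa3 monocyte held 3 to 34 Saa3 UMIs in library 1 (median 6), 3 to 43 in library 2 (median 5) and 3 to 167 in library 3 (median 20). Cells with 30 or more numbered 2, 3 and 34 in libraries 1, 2 and 3. In the cell with the highest share, Saa3 made up 0.345%, 0.616% and 1.68% of all UMIs. Just inside the threshold, with 3 to 4 Saa3 UMIs, stood 18, 8 and 21 of the cells, and just outside it, with 1 to 2 UMIs, were 67, 30 and 120 gated monocytes. Summed over cells, Saa3 stood at 873, 1187 and 1827 CPM (the UMIs of a gene scaled to a fixed total of all UMIs of the cells) in Saa3 monocytes of libraries 1, 2 and 3. The serum amyloid genes Saa1 and Saa2 had 0 UMIs in them in every library.

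Few cells that should lack Saa3 reached the threshold. At least 3 UMIs were found in 0 of 322, 0 of 254 and 1 of 368 B cells, in 0 of 136, 1 of 178 and 0 of 127 T cells and in 1 of 96, 1 of 1409 and 3 of 912 erythroid cells of libraries 1, 2 and 3. With 1 UMI as the limit, library 3 had Saa3 in 2.72% of B cells, 7.87% of T cells and 7.68% of erythroid cells, at median depths of 3434.5, 6544 and 9122 UMIs. Gated monocytes with 1 to 2 Saa3 UMIs were for that reason left out of the monocytes with no Saa3 UMI used for comparison (1503, 705 and 436 cells, with median depths of 7231, 8249 and 11803 UMIs). No barcode of a Saa3 monocyte occurred in another library, of 142 barcodes shared by 2 or more libraries in all.

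Most Saa3 RNA of libraries 1 and 3 lay outside these cells. Saa3 monocytes held 35.03%, 58.3% and 17.7% of the Saa3 UMIs of libraries 1, 2 and 3. In library 3, 83 of 279 monocyte progenitors (cells of the same gate with both Ass1 and Nrg1) had 3 or more Saa3 UMIs, or 29.7% (24.4 to 35.5), against 10 of 243 in library 1 and 1 of 157 in library 2. Of Ly6c2+ Ccr2+ Csf1r+ cells with 10 or more UMIs of Elane and Mpo, which encode proteases and peroxidase of granulocyte-monocyte progenitors, 238 of 735 passed it in library 3 (32.4%, 29.01 to 35.9), against 14 of 790 in library 1 and 1 of 218 in library 2. These shares rest on a fixed number of UMIs in cells of unlike depth: the median was 19511 UMIs in the progenitors and 30200 in the Elane and Mpo cells of library 3, against 12605 in its gated monocytes. Saa3 stood at 507 CPM in these progenitors and 286 CPM in the Elane and Mpo cells, against 342 CPM in the gated monocytes. Inside the gate Elane stood at 53.0, 46.9 and 99.0 CPM and Mpo at 65.7, 50.5 and 108 CPM in Saa3 monocytes of libraries 1, 2 and 3, against 92.6, 69.4 and 112 CPM and 86.6, 51.5 and 101 CPM in monocytes with no Saa3 UMI. Both genes belong to the gate, which limits them to a fixed number of UMIs in cells of unlike depth. These levels are therefore no finding. C1q macrophages held few such cells: 1 of 254, 3 of 308 and 12 of 511 in libraries 1, 2 and 3.

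The cells carried the genes of classical monocytes. All 25 genes of the classical monocyte list had UMIs in Saa3 monocytes of each library, and their summed level was 33594, 37941 and 27088 CPM, against 29143, 32445 and 26938 CPM in monocytes with no Saa3 UMI of libraries 1, 2 and 3. Lyz2, the lysozyme of myeloid cells, stood at 11830, 14905 and 7153 CPM in Saa3 monocytes, against 10252, 11769 and 9945 CPM. Fn1, the fibronectin gene that marks classical monocytes, was at 1429, 2031 and 801 CPM, against 1429, 2185 and 655 CPM. The 10 genes of the nonclassical monocyte list summed to 761, 797 and 438 CPM, against 601, 530 and 514 CPM, higher in libraries 1 and 2 and lower in library 3. Of the markers of other lineages, those of T and NK cells were low: of 12 genes 10, 12 and 7 were at 0 in Saa3 monocytes, with summed levels of 17.0, 0 and 19.0 CPM. The 10 B cell genes summed to 180, 155 and 195 CPM, against 327, 253 and 321 CPM. Neutrophil genes were not low: the 14 summed to 34673, 3578 and 28494 CPM, against 52224, 26433 and 32872 CPM. Erythroid genes summed to 61.5, 35203 and 6786 CPM, against 184, 13115 and 5736 CPM. Of 7 plasmacytoid dendritic cell genes 6, 6 and 1 were at 0, and of 9 conventional dendritic cell genes 3, 5 and 1. Of 15 macrophage genes 10, 8 and 11 had UMIs, and they summed to 396, 1912 and 271 CPM, against 240, 1164 and 346 CPM. Of those with at least 20 UMIs in both populations together, 3 of 9, 3 of 8 and 0 of 8 were at least 2-fold higher and 0, 1 and 3 lower, beside 6.13%, 7.28% and 2.1% of all such genes higher and 8.21%, 10.6% and 6.26% lower. Timd4, Lyve1, Folr2 and Cd5l were at 0 in all 3 libraries. The part of these lineages in the values that follow was not tested.

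Of Cxcl10, Tnf, Il6 and Ms4a4c, the first pair was higher in Saa3 monocytes of every library. Cxcl10, a chemokine for activated T cells, stood at 585, 144 and 335 CPM in Saa3 monocytes of libraries 1, 2 and 3, against 41.6, 23.4 and 202 CPM in monocytes with no Saa3 UMI. The log2 ratios of Saa3 monocytes to monocytes with no Saa3 UMI were 3.81 (3.60 to 4.03), 2.62 (2.09 to 3.12) and 0.73 (0.58 to 0.88). Tnf was at 439, 97.4 and 298 CPM, against 80.2, 24.3 and 185 CPM, with log2 ratios of 2.45 (2.23 to 2.67), 2.01 (1.36 to 2.59) and 0.69 (0.53 to 0.84). In library 1, 3 of the 51 cells, with 78, 60 and 50 UMIs, held most of the 276 Cxcl10 UMIs, and 30 cells held none. Without the highest cell of each library the log2 ratios of Cxcl10 were 3.36, 2.05 and 0.63. For both genes the distance was smallest in library 3, where the monocytes with no Saa3 UMI were themselves highest.

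Il6 was higher in Saa3 monocytes of libraries 1 and 3. It stood at 102, 7.21 and 64.6 CPM in Saa3 monocytes of libraries 1, 2 and 3, against 23.8, 7.59 and 37.1 CPM, and in library 2 it rested on 2 UMIs of 1 cell. Ms4a4c, an interferon-regulated membrane protein gene, was at 331, 231 and 620 CPM, against 228, 238 and 445 CPM, and its log2 ratios were 0.53 (0.29 to 0.77), -0.04 (-0.42 to 0.32) and 0.48 (0.37 to 0.58). Ms4a4c was common in both populations: it had a UMI in 43 of 51, 22 of 29 and 101 of 101 Saa3 monocytes, and in 74.0%, 79.0% and 90.8% of monocytes with no Saa3 UMI.

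More Saa3 monocytes than monocytes with no Saa3 UMI held at least 2 of the cytokine genes. At least 2 of Cxcl10, Tnf and Il6 had a UMI in 19 of 51 Saa3 monocytes in library 1 (37.3%, 24.1 to 51.9), 7 of 29 in library 2 (24.1%, 10.3 to 43.5) and 55 of 101 in library 3 (54.5%, 44.2 to 64.4). In monocytes with no Saa3 UMI the shares were 10.3% (8.82 to 12.0), 4.82% (3.36 to 6.67) and 30.5% (26.2 to 35.1). With each cell thinned to 2000 UMIs they were 23.5%, 10.3% and 23.8% of Saa3 monocytes, against 3.79%, 0.710% and 12.5% of monocytes with no Saa3 UMI. None of the 3 genes had a UMI in 13 of 51, 12 of 29 and 16 of 101 Saa3 monocytes. Taken singly, Cxcl10 was found in 41.2%, 37.9% and 58.4% of Saa3 monocytes, against 10.7%, 8.79% and 36.9% of monocytes with no Saa3 UMI. Tnf was found in 60.8%, 44.8% and 75.2%, against 30.2%, 17.2% and 50%, and Il6 in 27.5%, 3.45% and 32.7%, against 8.65%, 4.40% and 16.5%. Whether the genes met in a cell more often than these single shares give was not tested. In other cell types Cxcl10 had a UMI in 6.79% of B cells, 22.05% of T cells and 14.04% of erythroid cells of library 3, against 58.4% of its Saa3 monocytes. These shares come from unlike depths, with medians of 3434.5, 6544 and 9122 UMIs, against 16462 in the Saa3 monocytes. Summed over cells, Cxcl10 stood at 13.2, 56.0 and 26.5 CPM, against 335 CPM.

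Across all genes, Saa3 monocytes were compared with the monocytes with no Saa3 UMI of the same library by the log2 ratio of CPM, for genes with at least 20 UMIs in both populations together, called measured below. At least 2-fold higher in Saa3 monocytes were 642 of 10468 genes in library 1 (6.13%), 717 of 9847 in library 2 (7.28%) and 217 of 10320 in library 3 (2.1%), and at least 2-fold lower were 859 (8.21%), 1039 (10.6%) and 646 (6.26%). Beside Saa3, 14 of the 9257 genes measured in all 3 libraries (0.151%) were at least 2-fold higher in each, and 18 (0.194%) at least 2-fold lower. Among the 14 were Cd38, Cfb, Clec4e, Cxcl2, Gm14636, Gm6377, Hlf, Maff, Rnd1, Scamp1, Socs3, Spata13 and Tmco6. Among the 18 were Camp, Ltf, Ngp, Cebpe, Spn, Bcl2 and Runx2. When the Saa3 monocyte with the most UMIs of a gene was left out for that gene, Clec4e and Cfb alone stayed at 2-fold in all 3 libraries, an alternative chosen after seeing the data that lowers Saa3 monocytes only.

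Clec4e, which encodes Mincle, a C-type lectin receptor for mycobacterial lipids and dead cells, was among the most even of these genes. It stood at 324, 227 and 329 CPM in Saa3 monocytes, against 100, 77.9 and 124 CPM in monocytes with no Saa3 UMI of libraries 1, 2 and 3. The log2 ratios were 1.70 (1.45 to 1.94), 1.54 (1.15 to 1.92) and 1.41 (1.24 to 1.57), and it had a UMI in 37 of 51, 20 of 29 and 88 of 101 cells. Socs3, the feedback inhibitor of STAT3 signalling, was at 174, 462 and 168 CPM, against 34.7, 108 and 79.9 CPM. Its log2 ratios were 2.33 (1.97 to 2.67), 2.09 (1.81 to 2.36) and 1.07 (0.86 to 1.29). Cfb, complement factor B of the alternative pathway, was at 38.2, 50.5 and 43.3 CPM, against 7.59, 9.62 and 18.3 CPM.

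Cxcl2, a chemokine that draws neutrophils, was higher too, and in library 2 that rested on 1 cell. It stood at 644, 173 and 987 CPM in Saa3 monocytes of libraries 1, 2 and 3, against 119, 29.95 and 357 CPM in monocytes with no Saa3 UMI. In library 2, 71% of its 48 UMIs lay in 1 cell, and the log2 ratio of 2.53 was 0.80 without that cell. Cd38, an enzyme that consumes NAD on the cell surface, was at 61.5, 21.6 and 101 CPM, against 8.53, 6.91 and 23.4 CPM. It was found in 69 of 101 Saa3 monocytes of library 3 and 15 of 51 in library 1, while in library 2 it rested on 6 UMIs in 2 cells, and its log2 ratio of 1.65 there was -0.89 without the higher of them.

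**Figure D2:**
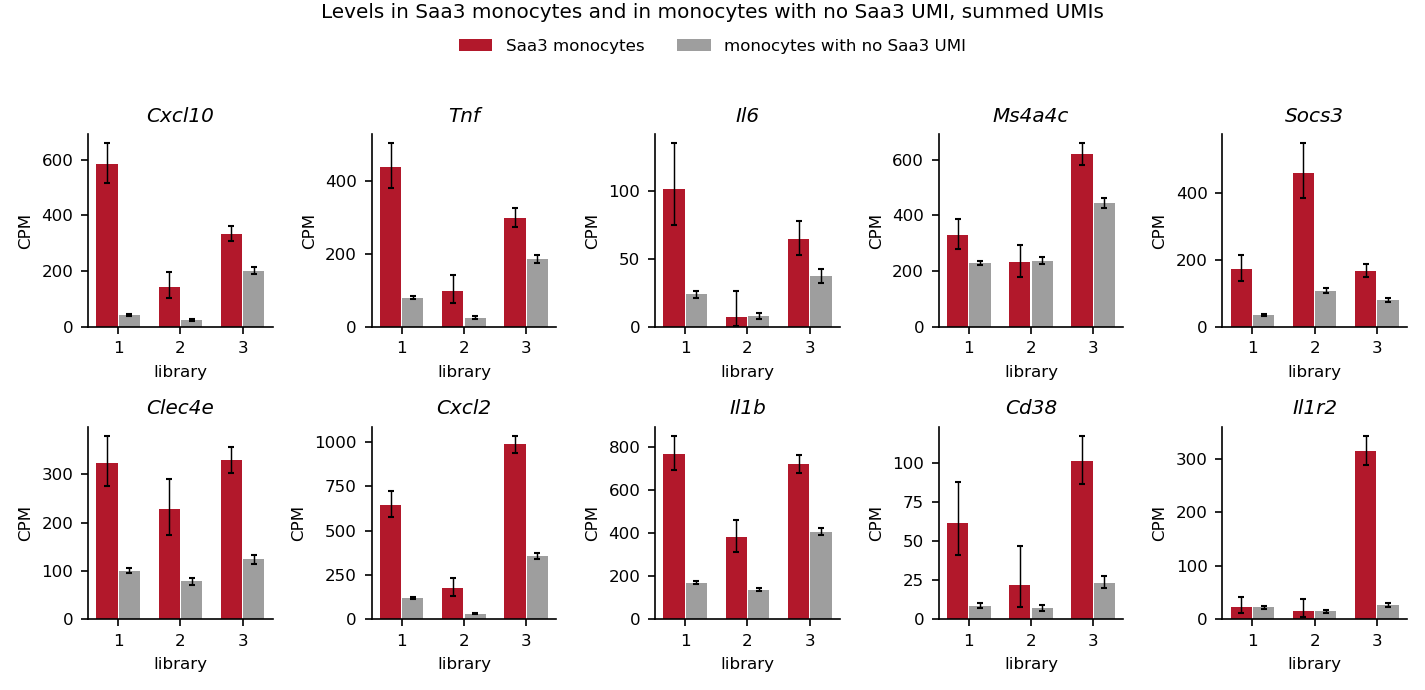
Level of 10 genes in CPM of summed UMIs (vertical axes, each with its own scale) in Saa3 monocytes (red) and monocytes with no Saa3 UMI (grey) of libraries 1, 2 and 3, with exact Poisson 95% intervals. Clec4e, Socs3 and Cxcl2 were higher in Saa3 monocytes in each library, whereas Il1r2 reached 315 CPM in library 3 and stood at 23.3 and 14.4 CPM in libraries 1 and 2.

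A second group of leading genes had mixed values in library 2. These genes, like Clec4e, Socs3, Cxcl2 and Cd38, were chosen for being higher in libraries 1 and 3, which held at least 50 Saa3 monocytes. Their direction in those libraries is therefore no finding. Thbs1, the matrix and platelet-binding protein thrombospondin, stood at 521, 263 and 221 CPM in Saa3 monocytes, against 176, 230 and 72.9 CPM. Vcan, a proteoglycan that classical monocytes make, was at 509, 281 and 587 CPM, against 203, 248 and 257 CPM, and had a UMI in 97 of 101 Saa3 monocytes of library 3. Ptgs2, the inducible cyclooxygenase, was at 263, 28.9 and 95.4 CPM, against 41.5, 24.8 and 41.6 CPM. Slc7a11, the cystine transporter, was at 97.5, 18.0 and 80.0 CPM, against 45.7, 27.1 and 31.7 CPM, with 80% of its UMIs in library 2 in 1 cell. Osm, the cytokine oncostatin M, was at 159, 39.7 and 78.2 CPM, against 64.97, 44.5 and 40.7 CPM. Bst1, which like Cd38 encodes an enzyme that consumes NAD, was at 99.6, 50.5 and 100 CPM, against 37.9, 36.2 and 47.6 CPM. Ctsl, the cathepsin L gene, was at 235, 213 and 197 CPM, against 72.6, 125 and 86.7 CPM, and 73% of its UMIs in library 2 lay in 1 cell, without which its log2 ratio there of 0.77 was -1.06. Library 2, with 29 cells, gives wide intervals here: the log2 ratio of Ptgs2 was 0.22 (-1.01 to 1.23) there.

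Other leading genes, chosen by the same rule, were higher in library 2 as well, and just under 2-fold higher in library 3. Cd14, the co-receptor for lipopolysaccharide, stood at 350, 447 and 287 CPM in Saa3 monocytes, against 116, 148 and 145 CPM. Nlrp3, the sensor of the inflammasome, was at 153, 93.8 and 140 CPM, against 59.5, 47.8 and 73.9 CPM. Ier3, an early response gene that guards against cell death, was at 273, 415 and 288 CPM, against 113, 162 and 153 CPM, and the transcription factor Ets2 at 93.3, 93.8 and 55.7 CPM, against 42.7, 38.6 and 29.6 CPM.

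Some genes of Toll-like receptor signalling and NF-kB were higher in Saa3 monocytes. At least 2-fold higher in Saa3 monocytes were 12 of 36 measured in library 1, 15 of 37 in library 2 and 2 of 37 in library 3, beside 6.13%, 7.28% and 2.1% of all genes, and 0 were 2-fold lower. The median log2 ratios were 0.72, 0.85 and 0.26, beside -0.04, -0.03 and -0.02 over all genes measured. Tnfaip3, whose product A20 shuts off NF-kB, stood at 333, 144 and 229 CPM, against 71.2, 43.6 and 135 CPM. Nfkbia, the inhibitor of NF-kB that NF-kB itself induces, was at 975, 934 and 1128 CPM, against 350, 292 and 607 CPM, and was found in 43 of 51, 28 of 29 and 99 of 101 Saa3 monocytes. Tlr2, a receptor for bacterial lipoproteins, was at 371, 415 and 190 CPM, against 177, 136 and 138 CPM. The NF-kB subunit Nfkb1 differed little, at 187, 166 and 119 CPM, against 180, 150 and 144 CPM.

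Cytokines and chemokines were set against the same shares of all genes (6.13%, 7.28% and 2.1% higher). Of the cytokine list 9 of 16, 6 of 14 and 1 of 18 measured genes were at least 2-fold higher in Saa3 monocytes of libraries 1, 2 and 3, and 0, 1 and 1 lower. Il1b stood at 767, 379 and 719 CPM, against 168, 137 and 404 CPM, with log2 ratios of 2.19 (2.03 to 2.35), 1.47 (1.16 to 1.76) and 0.83 (0.73 to 0.93). Il1rn, which encodes the antagonist of the IL-1 receptor, was at 33.9, 32.5 and 18.4 CPM, against 12.0, 15.3 and 10.4 CPM. Of the CXC chemokines 5 of 5, 3 of 4 and 2 of 5 measured genes were 2-fold higher, and of the CC chemokines 2 of 6, 3 of 6 and 1 of 7. Ccl3, a ligand of CCR1, was at 123, 253 and 119 CPM, against 49.4, 49.6 and 96.5 CPM, and Ccl2, the ligand of CCR2, at 12.7, 105 and 56.3 CPM, against 8.92, 25.3 and 30.8 CPM. Cxcl9 in library 1 rested on 4 cells, and stood at 127 CPM over all Saa3 monocytes, against 2.04 CPM in monocytes with no Saa3 UMI.

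Many interferon response genes were at least 2-fold higher in Saa3 monocytes of library 1, and few or none in the others. The type I interferon list summed to 6401, 5108 and 9688 CPM in Saa3 monocytes of libraries 1, 2 and 3. In monocytes with no Saa3 UMI it summed to 4162, 4902 and 8013 CPM. Of the type I interferon list, 20 of 43 measured genes were at least 2-fold higher in library 1, 3 of 39 in library 2 and 0 of 43 in library 3, and 2, 4 and 0 were 2-fold lower, beside 6.13%, 7.28% and 2.1% of all genes higher and 8.21%, 10.6% and 6.26% lower. Without the cell highest in each gene, 8 of 42 were higher in library 1. Ifit2, an antiviral effector, was at 74.2, 14.4 and 19.0 CPM in Saa3 monocytes, against 9.94, 14.9 and 18.8 CPM, and was found in 7 of the 51 cells of library 1. Isg15, a ubiquitin-like protein, was at 93.3, 25.3 and 274 CPM, against 34.1, 43.8 and 170 CPM, and Irf7, a master regulator of the response, at 59.3, 21.6 and 133 CPM, against 34.6, 31.7 and 103 CPM.

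The interferon-inducible GTPases and related genes differed in direction between libraries 1 and 3. In library 1, 16 of 20 measured genes were at least 2-fold higher in Saa3 monocytes and 0 lower, in library 2 3 of 18 were higher and 3 lower, and in library 3 0 of 22 were higher and 5 lower, beside the shares of all genes given above. The median log2 ratios were 1.46, 0.17 and -0.24. Gbp2, a guanylate-binding protein, stood at 153, 54.1 and 108 CPM in Saa3 monocytes, against 49.1, 45.5 and 199 CPM, with log2 ratios of 1.64 (1.26 to 1.99), 0.25 (-0.60 to 0.99) and -0.87 (-1.11 to -0.65). Iigp1, an immunity-related GTPase, was at 48.8, 14.4 and 30.8 CPM, against 9.24, 43.1 and 137 CPM. The monocytes with no Saa3 UMI differed between libraries in the same genes: 19 of 22 were at least 2-fold higher in library 3 than in library 1, where 4.46% of all genes measured were, and their summed level was 413, 466 and 1207 CPM in libraries 1, 2 and 3.

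Of the list of myeloid activation genes, 12 of 29, 11 of 28 and 5 of 28 measured were at least 2-fold higher in Saa3 monocytes of libraries 1, 2 and 3, and 0, 2 and 2 lower. Of all genes 6.13%, 7.28% and 2.1% were higher and 8.21%, 10.6% and 6.26% lower. Sod2, the mitochondrial superoxide dismutase, stood at 276, 346 and 258 CPM, against 94.9, 116 and 153 CPM. Acod1, which makes itaconate, was at 84.8, 14.4 and 61.6 CPM, against 15.3, 3.93 and 51.3 CPM, and Cd40, the co-stimulatory receptor, at 23.3, 32.5 and 8.89 CPM, against 2.90, 6.51 and 7.87 CPM. Trem1, an amplifying receptor of neutrophils and monocytes, was at 72.1, 10.8 and 61.6 CPM, against 43.7, 28.2 and 27.4 CPM. Wfdc17, a small secreted myeloid protein gene, was at 731, 895 and 603 CPM, against 299, 630 and 465 CPM.

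Of transcription factors of the monocyte line, 5, 3 and 3 of 21 measured were at least 2-fold higher in Saa3 monocytes of libraries 1, 2 and 3, beside 6.13%, 7.28% and 2.1% of all genes. At least 2-fold lower were 2, 1 and 1, which is near the 8.21%, 10.6% and 6.26% of all genes. Irf8, which directs monocyte and dendritic cell fate, was lower in Saa3 monocytes of each library, at 163, 184 and 185 CPM, against 386, 281 and 292 CPM. Cebpe, a factor of granule formation in granulocytes, was at 19.1, 0 and 17.8 CPM, against 68.6, 22.4 and 43.1 CPM. Cebpb, the C/EBP factor of activated macrophages, was at 1028, 1418 and 1013 CPM, against 715, 794 and 755 CPM, while Spi1, the PU.1 factor of all myeloid cells, stood at 405, 372 and 452 CPM, against 382, 351 and 429 CPM. Among homing receptors, Ccr1 was at 119, 213 and 180 CPM, against 99.8, 108 and 76.6 CPM. Icam1, the ligand of leukocyte integrins, was at 129, 227 and 84.7 CPM, against 43.5, 58.1 and 68.6 CPM.

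Granule genes of developing neutrophils were lower in Saa3 monocytes of all 3 libraries. Being lower in libraries 1 and 3 was the rule that chose Ngp, Camp and Ltf. Ngp, the neutrophilic granule protein, stood at 1937, 115 and 849 CPM, against 4181, 1575 and 2036 CPM. Camp, the cathelicidin gene, was at 1876, 184 and 669 CPM, against 4542, 1616 and 2002 CPM, and Ltf, the lactoferrin gene, at 702, 46.9 and 284 CPM, against 1623, 475 and 701 CPM. A single Saa3 monocyte held 40.0% of the UMIs of these 3 genes in library 1 and 44.3% in library 3, and the ratios were lower still without each gene's highest cell, at -1.73, -3.86 and -2.06 for Ngp. Not every neutrophil gene was lower in library 3: S100a8 was at 13638 CPM, against 12632 CPM, and Mmp8, the neutrophil collagenase, at 702 CPM, against 288 CPM. All 14 neutrophil genes together summed to 28494 CPM there, against 32872 CPM. In library 2 S100a8 was at 1089 CPM, against 9716 CPM, and 10 of 14 neutrophil genes were at least 2-fold lower, against 3 of 14 in each of libraries 1 and 3, beside 10.6%, 8.21% and 6.26% of all genes.

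Genes of antigen presentation on MHC class II were lower in Saa3 monocytes of libraries 1 and 3. Of the list with monocyte-derived dendritic cell genes 5 of 9 and 7 of 11 measured genes were at least 2-fold lower there, beside 8.21% and 6.26% of all genes, and in library 2 2 of 10 were higher, beside 7.28%. Cd74, the invariant chain, stood at 170, 768 and 175 CPM, against 252, 466 and 371 CPM. H2-Ab1, a class II chain, was at 19.1, 191 and 42.7 CPM, against 61.7, 123 and 89.7 CPM. H2-Aa, its partner chain, was at 21.2, 285 and 48.0 CPM, against 72.3, 154 and 101 CPM, and in library 2 its 79 UMIs lay in 4 cells. Spn, the CD43 gene, was at 40.3, 25.3 and 49.8 CPM, against 137, 77.8 and 100 CPM. Bpifa1, a secretory protein gene of airway and middle ear epithelium, was at 4.24 and 11.9 CPM in libraries 1 and 3, against 105 and 102 CPM. In library 2 Bpifa1 was at 21.6 CPM, against 18.2 CPM. H2-Ab1, H2-Aa, Spn and Bpifa1 were chosen for being lower in libraries 1 and 3.

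Cell cycle genes set library 2 apart. There 13 of 20 were at least 2-fold lower in Saa3 monocytes than in monocytes with no Saa3 UMI and 0 higher, beside 10.6% and 7.28% of all genes, with a median log2 ratio of -1.49, against medians of -0.36 in library 1 and 0.17 in library 3. Mki67, a marker of cycling cells, stood at 613, 72.1 and 698 CPM in Saa3 monocytes, against 670, 346 and 612 CPM, and had a UMI in 25 of 51, 3 of 29 and 89 of 101 cells. In library 2, 90% of its UMIs lay in 1 cell. Stmn1, which regulates microtubules in dividing cells, was at 593, 162 and 842 CPM, against 741, 495 and 832 CPM.

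**Figure D3:**
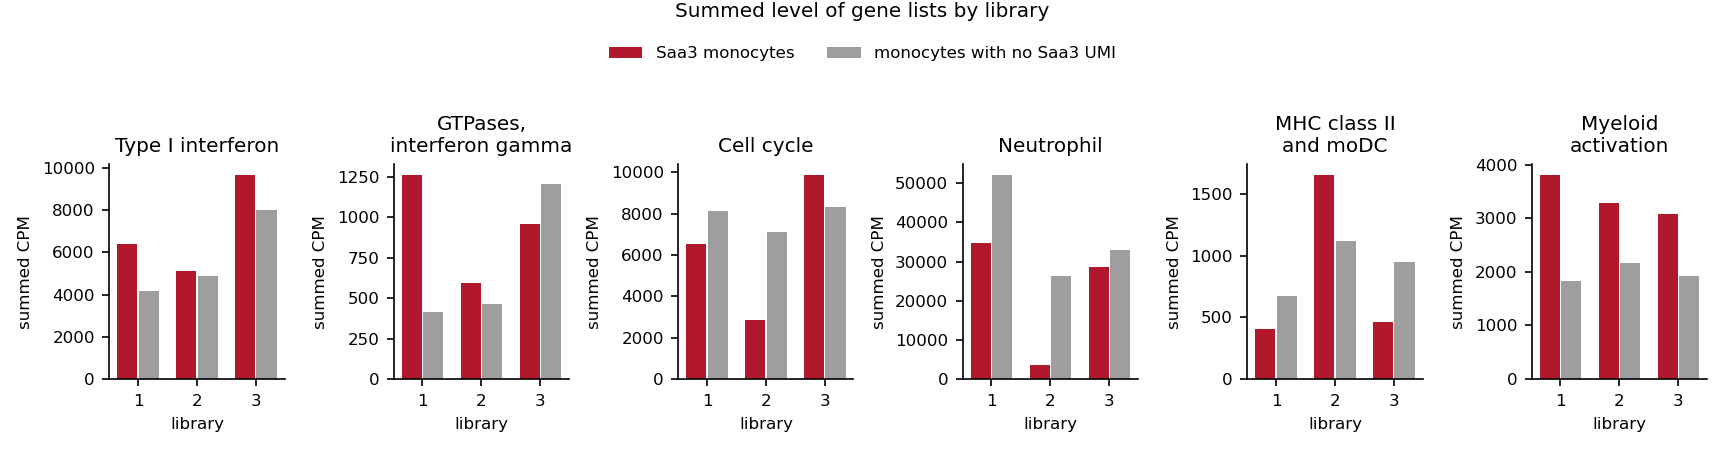
Summed CPM of 6 gene lists (vertical axes, each with its own scale) in Saa3 monocytes (red) and monocytes with no Saa3 UMI (grey) by library. The GTPase list stood at 1263, 592 and 958 CPM in Saa3 monocytes of libraries 1, 2 and 3, against 413, 466 and 1207 CPM.

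Between libraries, Il1r2 was far higher in Saa3 monocytes of library 3 than in those of libraries 1 and 2, while the monocytes with no Saa3 UMI stood close together. The difference between these distances was not tested. Il1r2 was named for its large difference between libraries 1 and 3. Saa3 monocytes of library 3 also held more Saa3, with a median of 20 UMIs, against 6 and 5 in libraries 1 and 2. Cells with 30 or more Saa3 UMIs numbered 34 there, against 2 and 3. The cells of library 3 were also deeper, with a median of 16462 UMIs, against 8712 and 7648. As a share of the UMIs of a cell, the median of Saa3 was 0.129%, against 0.0786% and 0.0729%. Saa3 chose these cells, so its values are no finding. Within library 3, Il1r2 was higher in cells with more Saa3, and the part of Saa3 content in the difference between libraries was not tested. Il1r2 encodes the decoy receptor that binds IL-1 without signalling. It stood at 315 CPM (288 to 343) in Saa3 monocytes of library 3, against 23.3 CPM (11.6 to 41.7) in library 1 and 14.4 CPM (3.93 to 36.9) in library 2, and had a UMI in 69 of 101, 8 of 51 and 2 of 29 cells. The log2 ratio of library 3 to library 1 was 3.75 (2.90 to 4.77) in Saa3 monocytes, and 10.5% of all genes measured in these cells were at least 2-fold higher there. In monocytes with no Saa3 UMI, Il1r2 stood at 26.3 CPM in library 3, against 21.9 CPM in library 1 and 14.5 CPM in library 2. Neutrophils are known to carry Il1r2 too, and it stands on the list of 14 neutrophil genes. In library 3 that list summed to 28494 CPM in Saa3 monocytes, against 32872 CPM in monocytes with no Saa3 UMI, with 2 genes at least 2-fold higher (Il1r2 and Mmp8) and 3 lower. The part of neutrophil RNA in Il1r2 was not tested.

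Between libraries 3 and 2, many interferon genes differed in the same direction in Saa3 monocytes and in monocytes with no Saa3 UMI. Of the type I interferon genes, 21 of 40 measured were at least 2-fold higher in Saa3 monocytes of library 3 than of library 2, and 24 of 43 in monocytes with no Saa3 UMI, against 15.6% and 2.67% of all genes measured. For the GTPase list the counts were 13 of 17 and 15 of 22. Against library 1 that list ran differently: it summed to 958 CPM in Saa3 monocytes of library 3, against 1263 CPM in library 1, and to 1207 CPM in monocytes with no Saa3 UMI of library 3, against 413 CPM in library 1. Cell cycle genes differed in Saa3 monocytes: 15 of 20 were higher in library 3 than in library 2, with a median log2 ratio of 2.16, while 0 of 20 were in monocytes with no Saa3 UMI, with a median of 0.36. Neutrophil genes did likewise, with 11 of 14 in Saa3 monocytes and 2 of 14 in the others, and without called doublets the first count was 6 of 13. These comparisons share library 3, and the differences between the populations were not tested.

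Within library 3, which held enough cells, levels were followed along Saa3 itself. Gated monocytes with 0, 1 to 2, 3 to 9, 10 to 29 and 30 or more Saa3 UMIs numbered 436, 120, 35, 32 and 34, with median depths of 11803, 13026, 13768, 16153.5 and 19350.5 UMIs. Il1r2 stood at 26.3, 60.0, 101, 267 and 531 CPM in that order, higher at each step. Mmp8 was at 288, 295, 338, 631 and 1063 CPM, near even over the first 2 steps and higher after them. Clec4e was at 124, 162, 273, 284 and 412 CPM, Vcan at 257, 270, 440, 580 and 714 CPM and Cxcl2 at 357, 629, 705, 1056 and 1161 CPM. Cd38 was at 23.4, 24.0 and 32.5 CPM up to 9 Saa3 UMIs and at 136 and 129 CPM above.

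Tnf and Cxcl10 stood closer together along the steps. Tnf was at 185, 277, 281, 322 and 292 CPM and Cxcl10 at 202, 320, 300, 322 and 374 CPM along the same 5 steps. For these genes most of the step lay between no UMI and 1 to 2 UMIs. Summed with Il6 and Ms4a4c they stood at 869, 1095, 1147, 1318 and 1458 CPM, higher at each step. Gbp2 stood at 199, 198, 126, 149 and 60.0 CPM, and Iigp1 at 137, 106, 42.1, 47.1 and 7.90 CPM, lowest in the cells with most Saa3. Their GTPase list summed to 1207, 1316, 1002, 1047 and 848 CPM. The type I interferon list ran the other way, at 8013, 7700, 8764, 9748 and 10402 CPM, highest in the cells with most Saa3. Lyz2 was at 9945, 8671, 9651, 7184 and 5063 CPM, whereas Chil3, a chitinase-like protein of immature monocytes and macrophages, was at 1591, 1519, 1435, 2880 and 3428 CPM. Ms4a3, which marks granulocyte-monocyte progenitors, was at 28.7, 25.04, 59.3, 62.1 and 120 CPM. Ngp did not follow a single direction, at 2036, 1285, 847, 1307 and 466 CPM. The 14 neutrophil genes, Il1r2 among them, summed to 32872, 25069, 19355, 29697 and 35035 CPM, lowest at the middle step and highest at the top one. Depth increased along the steps as well, and the part of neutrophil RNA and of depth in these levels was not tested.

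**Figure D4:**
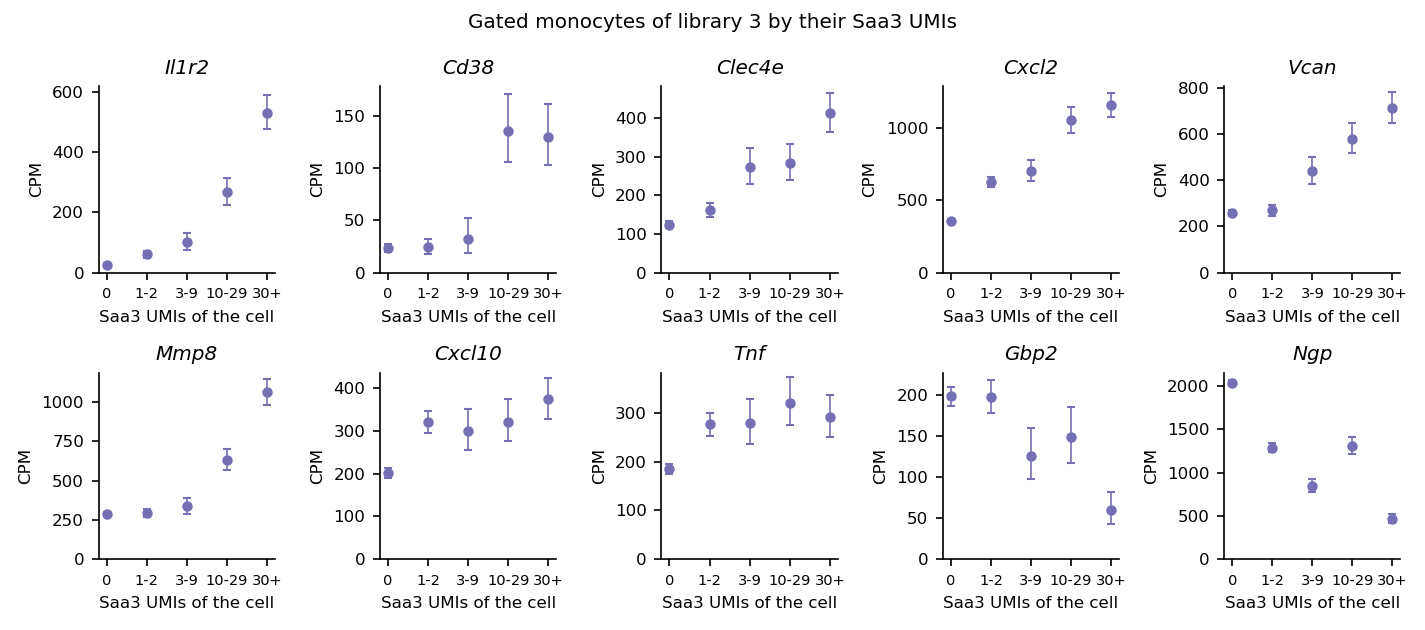
Level of 10 genes in CPM of summed UMIs (vertical axes, each with its own scale) in gated monocytes of library 3 with 0, 1 to 2, 3 to 9, 10 to 29 and 30 or more Saa3 UMIs, with exact Poisson 95% intervals. Il1r2 stood at 531 CPM in the cells with 30 or more Saa3 UMIs, against 26.3 CPM in those with none, and Gbp2 stood at 60.0 CPM with 30 or more, against 199 CPM with none.

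Clec4e was also higher in Saa3 monocytes than in monocyte progenitors and C1q macrophages, and Il6 stood close to progenitors in library 3. Clec4e was at 324, 227 and 329 CPM in Saa3 monocytes, against 72.8, 38.4 and 174 CPM in monocyte progenitors and 65.4, 30.7 and 55.6 CPM in C1q macrophages of libraries 1, 2 and 3. Il6 was at 102, 7.21 and 64.6 CPM, against 19.1, 3.95 and 57.7 CPM in progenitors and 1.92, 0.902 and 5.64 CPM in macrophages. Other genes were not: Cxcl2 was at 644, 173 and 987 CPM in Saa3 monocytes, against 807, 662 and 1028 CPM in macrophages. Cxcl10 in library 3 stood at 335 CPM in Saa3 monocytes, against 343 CPM in progenitors and 512 CPM in macrophages. Il1r2 in library 3 was at 315 CPM, against 91.6 CPM in progenitors and 23.3 CPM in macrophages. The progenitors and macrophages were not chosen by Saa3: in library 3, 83 of 279 and 12 of 511 of them held at least 3 Saa3 UMIs. The part of the choice by Saa3 in these differences was not tested.

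Some cells carried RNA of other cell types. Of the UMIs of erythroid genes in Saa3 monocytes, 1 cell held 48.0% in library 2 and 62.6% in library 3. Genes of cochlear stroma, bone and endothelium summed to 362, 375 and 345 CPM, against 477, 596 and 383 CPM, with 38.0%, 48.1% and 37.8% of the UMIs in 1 cell. Fabp4, a fatty acid-binding protein gene, was at 161, 253 and 0.593 CPM, but rested on 2, 3 and 1 cells. A doublet caller marked 7, 2 and 12 of the Saa3 monocytes, and the part of such cells in the values above was not tested beyond leaving them out.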

How the data were processed

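Single-cell 3′ RNA libraries were counted by the authors with Cell Ranger 7.1.0, per the file headers, on build GRCm39, per the submitters' processing notes. The deposited values are whole-number UMI counts per gene and barcode for 32285 genes in 1 table, whose barcode suffixes give 3 libraries. The sources do not give how cells were called or libraries pooled. The members and the 37 gene lists were chosen with earlier results of these data known. Filters and the gate were applied as described above, in Python 3.11.15 with numpy 2.4.6, scipy 1.17.1 and pandas 2.3.3. Counts were summed per library and population and given as CPM, with exact Poisson intervals, and ratios with conditional exact intervals. Shares have exact Clopper-Pearson intervals. A sum of 0 was set to a floor of 3 counts per library, and no ratio was taken where that floor lay beyond the other level. Ratios used genes with at least 20 summed UMIs, and 2-fold was called, with no test. Summed depth was 471782, 277223 and 1687587 UMIs in Saa3 monocytes and 12774489, 7378494 and 5844885 in monocytes with no Saa3 UMI.

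Named genes were drawn from the markers, the 20 with the largest and the 10 with the smallest ratio in the libraries with at least 50 members (ranked by the ratio nearest to 0, at least 50 CPM), the 15 that differed most between those libraries, and up to 6 per list. The genes called in all 3 libraries, and others named outside this rule, were chosen after their values were seen, and some results are not reported here. Scrublet (scanpy 1.11.5, expected doublet rate 6%) marked 951 (5.63%), 450 (4.69%) and 506 (4.73%) barcodes as doublets, which were kept unless stated. TMM factors came from edgeR 4.0.16 in R 4.3.3. Ratios were tested on simulated counts with known folds. Of the listed symbols, 522 of 526 were found with 1 row. Promoters are those of RefSeq in GRCm38.p6, and no coordinate of the counted build was used. All 5 markers and 15 of the 20 leading genes matched the promoter table.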

Additional observations from a re-analysis of the deposited data

Results flagged for a closer look

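A Saa3 signal also stood in cells that the gate leaves out. At least 3 Saa3 UMIs were found in 65 cells outside the Saa3 monocytes in library 1, 19 in library 2 and 455 in library 3, which is 0.386% (0.298 to 0.492), 0.198% (0.120 to 0.310) and 4.29% (3.91 to 4.69) of the other filtered barcodes. The limit that a count of 0 would allow there is 0.0178%, 0.0313% and 0.0283%. In library 3, 83 of them failed only the rule on Ass1 and Nrg1, 41 only that on Elane and Mpo, 26 only that on Csf1r and 8 only that on C1q.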

How the results depend on the processing

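No paired analysis was possible because each group had 1 library and no test was run. With 29 to 101 cells per library, single cells weigh on single genes, and depth limits the number of cells found: with cells thinned to 3000 UMIs, 12, 4 and 41 cells met the rule in libraries 1, 2 and 3. Other limits gave 118, 59 and 221 cells (Saa3 of at least 1), 12, 9 and 66 (at least 10), 33 in library 1 (at least 5), 39 in library 3 (Elane and Mpo under 3) and 184 in library 3 (no rule on Ass1 and Nrg1). Of 170 alternative values of cell numbers and gene counts, 90 stayed within 1.5 times the reported value. Of the single genes and list medians, 2573 stayed within their spread, 385 moved and 17 reversed.

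Genes higher in Saa3 monocytes than in monocytes with no Saa3 UMI numbered 1313, 1605 and 715 in libraries 1, 2 and 3 at 1.5-fold, with 1830, 2037 and 1409 lower, and 143, 87 and 31 at 4-fold, with 133, 181 and 122 lower. With at least 100 UMIs 199, 216 and 67 were higher and in library 3 127 lower, and with at least 1 UMI 1530, 1418 and 1041 were higher and in library 3 1053 lower. One count added to each sum gave 1054 higher and 484 lower in library 1, and 1244 higher and 664 lower in library 2. Thinning each cell to 2000 UMIs gave 619 lower in library 2. Without the highest cell of each gene 223, 171 and 116 were higher and 1471, 2013 and 1196 lower, by construction.

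Genes higher in library 3 than in library 1 within Saa3 monocytes, with those lower, numbered 1649 and 1644 at 1.5-fold, 142 and 51 at 4-fold, 259 and 126 with 100 UMIs, and 301 and 153 thinned, and 1886 were lower with 1 UMI. For library 3 over library 2 they were 2088 and 1534, 298 and 102, 460 and 137, and 474 and 144, with 2590 lower with 1 UMI and 1973 and 483 without the highest cells. Genes called in all 3 libraries numbered 83 higher and 105 lower at 1.5-fold, 0 and 0 at 4-fold, 5 and 10 with 100 UMIs, and 2 and 60 without the highest cells. They were 42 higher with 1 UMI, 9 lower when thinned, and 9 higher against monocytes with 0 to 2 Saa3 UMIs. The counts were 33 and 63 without library 1, 49 and 106 without library 2, and 159 and 134 without library 3.

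These log2 ratios reversed. Thinned, Gcnt2 was -1.35, F630028O10Rik 0.015, Dcn 0.24 and Ptn 0.67 in library 1, and Ptn 0.74, Fmc1 0.12, the nonclassical monocyte median -0.42 and the granulocyte-monocyte progenitor median 0.14 in library 2. Without the highest cells, Cd38 was -0.89, Fabp4 -2.73 and Car2 -0.54 in library 2 and Ptn -0.81 in library 3. Without called doublets, Car2 was -0.52 in library 2, Ptn -1.04 in library 3 and the stroma median of library 3 over library 2 -1.71, and with 1 UMI that median was -0.31. As a mean of cells, the platelet median was 0.81 in library 2. The causes were not tested. TMM scaling moved the median of all genes to -0.14, -0.06 and -0.04 in libraries 1, 2 and 3, and 11 genes were then higher and 19 lower in all 3. Leaving out cells and libraries was chosen after seeing the data.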
